A study of Mus musculus with 2 samples.

Results

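The proteasome subunit genes of mouse left ventricle were followed in hearts with and without *Bmal1*. Members were taken by symbol, as every gene whose name runs from Psma to Psmg followed by a number. The arrays held 50 such genes among 20280 genes with a symbol. Of these 50, 48 had a signal well above background and were measured, among 13844 genes measured in all, and each of the 48 was well above background on both arrays. *Psma8*, an alpha subunit of the testis, and *Psmb11*, a catalytic subunit of the cortical thymus, were not well above background on either array. A further 2 members, *Psmc3ip* and *Psme3ip1*, carry the name as binding partners of a subunit and are no part of the particle, which leaves 46 measured genes of the proteasome, its activators, its inhibitor and its assembly chaperones.

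The proteasome is the main protease of the cytosol and nucleus, and it degrades proteins that carry ubiquitin chains. Its core particle is a barrel of alpha and beta rings whose beta subunits cut proteins inside the chamber. A regulatory particle caps the barrel: its base holds a ring of ATPases that unfold the substrate, and its lid removes the ubiquitin. In cells exposed to interferon, and constitutively in many leukocytes, 3 catalytic beta subunits are exchanged for those of the immunoproteasome. Heart muscle turns over its sarcomere proteins in part through this system. Many subunit genes are transcribed together under the factor NFE2L1, which is activated when proteasome activity falls short.

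The data are 2 arrays of a single color, 1 for each genotype. *H-Bmal1* -/- mice carried a floxed *Bmal1* gene and a *Cre* transgene driven by the αMHC promoter, which is active in cardiomyocytes, so that other cells of the ventricle were expected to keep the gene. Controls were littermates with the floxed gene but without *Cre*, although the sample labels call them wild type, and no group carried *Cre* alone. All mice were males of 12 weeks, the left ventricle was collected at ZT 2 (2 h after lights on), and each array received a pool of the RNA of 6 animals. A difference between the arrays therefore has no replicate check, and no test was made. The comparison asks which transcripts differ in abundance in the ventricle when the cardiomyocyte clock is disrupted. The paper cautions that differences seen at ZT 2 alone might reflect shifted peaks or troughs of expression. It also reports a thicker left ventricular wall, lower fractional shortening and raised *ANP* and *BNP* in knockout mice of this age. The part of shifted timing or of heart failure in the ratios was not tested.

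Levels are given as log2 of the processed signal relative to the 75th percentile of the same array, and a log2 ratio is the level on the knockout array minus that on the control array. A log2 ratio of a gene is the mean over its measured probes. Levels of different genes come from different probes and were not compared. The 75th percentile itself was 171 processed signal units on the control and 190 on the knockout array, and 29288 and 29672 of 59305 spots were well above background. *Bmal1* itself, listed as *Arntl*, had a level of 1.58 on the control and 0.79 on the knockout array, a log2 ratio of -0.80, from 1 probe, whose position relative to the deletion the sources used here do not give. *Nr1d1*, a direct target of the clock, had a log2 ratio of -2.09. The only measure of error is technical: among 247 probes printed at 8 or more spots, the SD of the log2 ratio between spots of 1 probe had a median of 0.074 and a 95th percentile of 0.26. Of the 48 members, 9 had a ratio larger in size than this 95th percentile and 39 did not, whereas 38.7% of all measured genes did.

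The promoters of 7 members are shown for reading beside the results, namely those with the highest and the lowest ratio and 5 that hold letters known from transcription factors of the clock, the oxidative stress response or interferon signaling. Each run is the 250 bases before the annotated start, 5′ to 3′ along the gene, from RefSeq on GRCm38.p6. Capitals mark a match on either strand to 1 of 3 motifs: the E-box CACGTG in *Psma4*, *Psmb10* and *Psme3*, the antioxidant response element core TGACNNNGC in *Psmb5*, and the gamma-activated sequence TTCNNNGAA in *Psmb8*. Matches to the CCAAT box are not in capitals, and *Psme3* holds 1. *Psmd8* and *Psme4*, the extremes of the family, held none of the motifs searched.

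*Psma4*, chr9:54950609-54950858, plus strand: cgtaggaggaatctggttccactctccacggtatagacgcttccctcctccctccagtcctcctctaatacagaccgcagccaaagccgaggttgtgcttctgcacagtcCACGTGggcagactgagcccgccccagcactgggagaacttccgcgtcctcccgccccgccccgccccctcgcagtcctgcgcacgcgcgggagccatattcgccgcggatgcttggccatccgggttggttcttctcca
*Psmb10*, chr8:105938393-105938642, minus strand: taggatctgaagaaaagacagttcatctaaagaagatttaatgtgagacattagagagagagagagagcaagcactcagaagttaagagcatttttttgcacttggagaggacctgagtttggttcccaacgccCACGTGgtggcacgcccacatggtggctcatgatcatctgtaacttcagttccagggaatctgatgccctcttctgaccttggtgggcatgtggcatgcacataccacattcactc
*Psme3*, chr11:101315963-101316212, plus strand: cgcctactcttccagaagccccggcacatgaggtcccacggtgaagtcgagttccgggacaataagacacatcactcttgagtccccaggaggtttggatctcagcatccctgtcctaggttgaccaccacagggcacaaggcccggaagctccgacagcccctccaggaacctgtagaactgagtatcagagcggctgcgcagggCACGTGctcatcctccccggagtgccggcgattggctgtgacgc
*Psmb5*, chr14:54617996-54618245, minus strand: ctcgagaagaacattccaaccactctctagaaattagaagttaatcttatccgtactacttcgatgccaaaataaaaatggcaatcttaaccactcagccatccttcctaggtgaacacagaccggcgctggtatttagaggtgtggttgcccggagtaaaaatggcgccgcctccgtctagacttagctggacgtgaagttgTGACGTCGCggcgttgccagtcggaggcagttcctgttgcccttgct
*Psmb8*, chr17:34197945-34198194, plus strand: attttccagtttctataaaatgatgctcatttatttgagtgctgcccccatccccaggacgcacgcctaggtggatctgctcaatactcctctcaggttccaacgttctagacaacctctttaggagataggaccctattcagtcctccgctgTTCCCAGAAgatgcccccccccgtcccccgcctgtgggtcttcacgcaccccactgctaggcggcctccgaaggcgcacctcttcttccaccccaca
*Psmd8*, chr7:29180674-29180923, minus strand: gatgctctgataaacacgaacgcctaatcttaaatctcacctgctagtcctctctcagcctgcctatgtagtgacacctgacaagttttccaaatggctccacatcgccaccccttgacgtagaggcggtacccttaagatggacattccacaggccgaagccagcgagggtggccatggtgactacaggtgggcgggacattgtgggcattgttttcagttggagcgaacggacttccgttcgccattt
*Psme4*, chr11:30771525-30771774, plus strand: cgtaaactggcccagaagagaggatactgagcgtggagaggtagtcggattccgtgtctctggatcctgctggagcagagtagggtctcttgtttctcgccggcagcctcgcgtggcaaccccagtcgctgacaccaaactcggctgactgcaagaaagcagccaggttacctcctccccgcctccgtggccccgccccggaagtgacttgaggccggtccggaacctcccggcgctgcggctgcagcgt

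Of the 48 measured members, 41 had a promoter in the table used, 4 of them with several starts. The E-box, which the BMAL1 and CLOCK proteins bind, was found in 5 of the 41 (12.2%) and in 6.86% of the promoters of 27025 genes. The 5 members with an E-box, *Psma4*, *Psmb10*, *Psmd9*, *Psme3* and *Psme3ip1*, had log2 ratios of 0.013 to 0.11. The antioxidant response element core was found in 5 members (12.2%) and in 11.5% of all genes, and these members (*Psmb5*, *Psmb6*, *Psmc6*, *Psmd12* and *Psmd9*) had ratios from -0.058 to 0.18. The gamma-activated sequence was found in 2 members (4.88%), *Psmb8* and *Psmg1*, and in 8.13% of all genes. The interferon-stimulated response element, searched as a pair of GAAA with 2 bases between them, was found in 3 members (7.32%), *Psmb3*, *Psmd4* and *Psmd9*, and in 3.46% of all genes. The CCAAT box, searched as CCAAT, was found in 15 members (36.6%) and in 37.5% of all genes. Both strands were searched for each motif, and no motif contains another of those searched. The windows of the members had a median GC content of 57.6%, and those of all genes 52.4%.

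As a family, the proteasome genes differed little between the genotypes, and most lay slightly on the higher side in the knockout. None of the 48 members was 1.5-fold higher or lower, where 6.16% of all measured genes reached 1.5-fold on the higher side and 5.85% on the lower side. All 48 members were measured on both arrays, as were 13047 of the 13844 genes, and the genes were not matched to the members by signal level. Of the 48, 38 had a log2 ratio above 0 and 10 below, where 48.4% of all genes were above and 51.6% below. The median of the members was 0.065 and that of all measured genes -0.013. The quartiles of the members were 0.012 and 0.18, and those of all genes -0.20 and 0.18. At a smaller threshold, 6 members were at least 1.2-fold higher, where 18.0% of all genes were, and 3 were at least 1.2-fold lower, where 19.1% were. All 6 that were higher are subunits of the core or the regulatory particle, and the 3 that were lower are the activators *Psme1* and *Psme4* and the name-only member *Psmc3ip*.

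**Figure D1:**
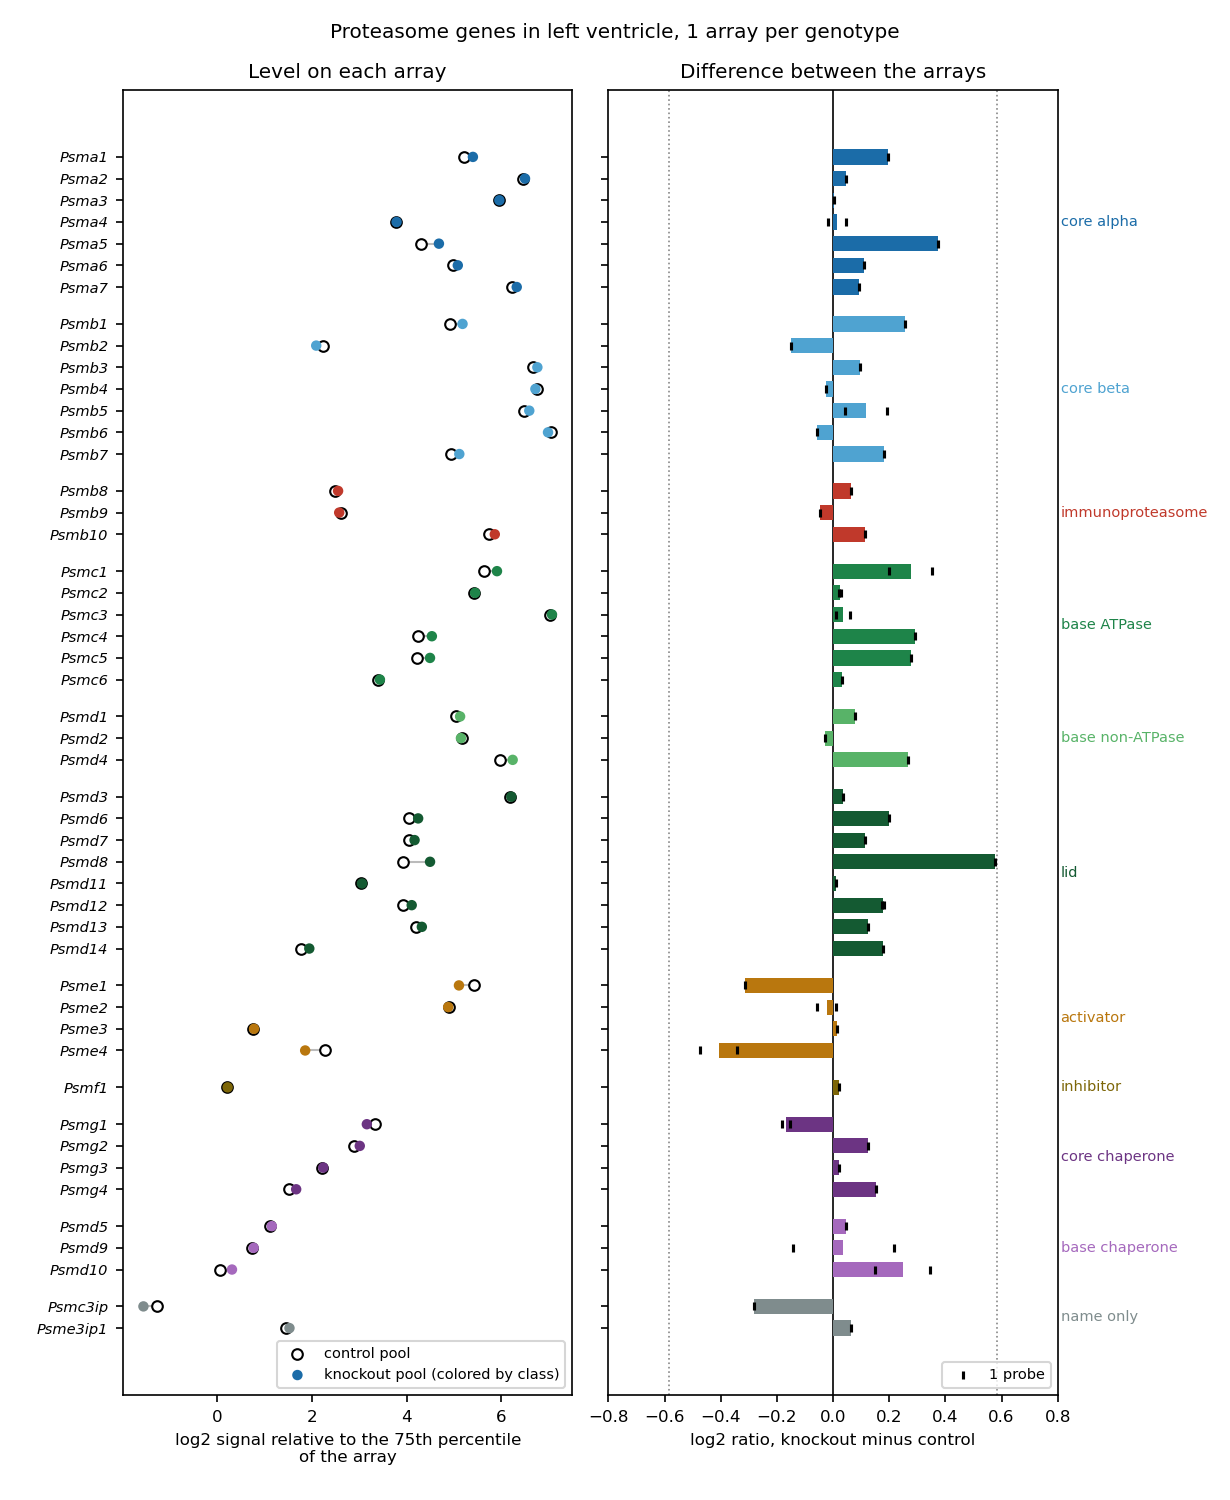
Each row is 1 measured gene, grouped by its place in the particle. The left panel gives its level on the control array (open circle) and on the knockout array (filled circle) as log2 signal relative to the 75th percentile of the array, and the right panel gives the log2 ratio as a bar, each of its probes as a tick, and a 1.5-fold difference as dotted lines. No bar reaches the dotted lines, *Psmd8* at 0.58 comes nearest, and *Psme4* at -0.41 is the lowest.

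**Figure D2:**
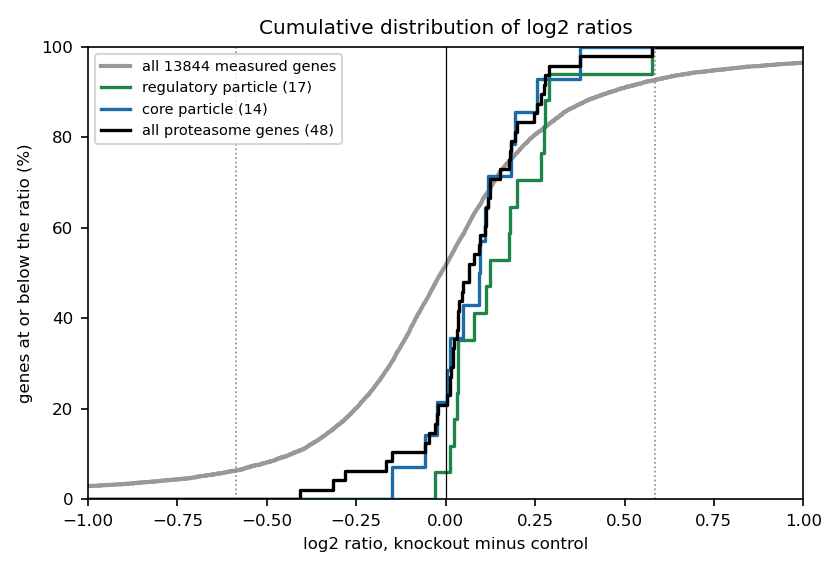
The x axis is the log2 ratio and the y axis the percentage of genes at or below it, for all 13844 measured genes, all 48 proteasome genes, the 14 core particle genes and the 17 regulatory particle genes. The proteasome curves cross 0 at a lower percentage than the curve of all genes and are steeper, and the dotted lines mark a 1.5-fold difference.

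The core particle had 14 measured genes, and 11 of them had a log2 ratio above 0, with a median of 0.094. All 7 alpha subunits, which form the outer rings and the gate of the barrel, were above 0, with a median of 0.092. The highest was *Psma5*, with a level of 4.31 on the control and 4.68 on the knockout array, a log2 ratio of 0.37 or 1.30-fold. *Psma1* was at 5.20 and 5.40, a ratio of 0.19. *Psma6* had a ratio of 0.11 and *Psma7* one of 0.092. The ratios of *Psma2* (0.047), *Psma4* (0.013) and *Psma3* (0.0027) were below the median spot SD of 0.074. Under normexp *Psma2*, at 0.15, was above *Psma7*, at 0.13. Both *Psma3* and *Psma4* lay below 0 where the arrays were scaled to the E1A spike-in probes, and *Psma3* also where they were scaled to the median of detected probes.

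The 7 constitutive beta subunits were spread more evenly around 0, with 4 above it and a median of 0.095. *Psmb1*, a noncatalytic subunit of the inner ring, was at 4.92 on the control and 5.18 on the knockout array, a ratio of 0.25, and *Psmb3*, also noncatalytic, had a ratio of 0.095. *Psmb2* was at 2.25 and 2.10, a ratio of -0.15, and *Psmb4* had a ratio of -0.025. *Psmb2* was the lowest of the core genes. The catalytic subunits did not move as 1 group: *Psmb7*, with trypsin-like activity, was at 4.93 and 5.11, a ratio of 0.18. *Psmb5*, with chymotrypsin-like activity, had a ratio of 0.12 from probes at 0.044 and 0.19, and *Psmb6*, with caspase-like activity, was at 7.04 and 6.98, a ratio of -0.058. Without scaling between the arrays, where 69.8% of all genes were above 0, *Psmb2*, *Psmb4* and *Psmb6* were above 0 too. *Psmb4* and *Psmb6* were also above 0 after a normexp background correction, at 0.097 and 0.045, and *Psmb4* under cyclic loess, at 0.0045.

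The 3 immunoproteasome subunits had ratios within the range of the 7 constitutive beta subunits, which was -0.15 to 0.25. *Psmb8* was at 2.49 on the control and 2.56 on the knockout array, a log2 ratio of 0.065. *Psmb9* was at 2.63 and 2.58, a ratio of -0.046, and *Psmb10* at 5.75 and 5.86, a ratio of 0.11. Their median was 0.065, and none was 1.2-fold higher or lower, where 18.0% and 19.1% of all measured genes were. Each immunoproteasome subunit takes the place of 1 constitutive subunit, so the ratios were also set against each other in pairs. The ratio of *Psmb8* minus that of *Psmb5* was -0.054, between -0.15 and -0.054 over the scalings and normexp, and 0.021 with the brightest probe of *Psmb5* alone. The ratio of *Psmb9* minus that of *Psmb6* was 0.011, and between -0.058 and 0.011 over the scalings and normexp. The ratio of *Psmb10* minus that of *Psmb7* was -0.069, and between -0.15 and -0.026 over the scalings and normexp. As reported, all 3 paired differences were smaller in size than the median spot SD of 0.074, but those of *Psmb8* and *Psmb10* exceeded it at the lower end of their ranges.

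On the chromosome, *Psmb8* and *Psmb9* flank *Tap1*, and *Tap2* follows *Psmb8*; these encode the transporter that carries proteasome peptides to class I molecules. *Tap1* had a log2 ratio of 0.22, from a level of -1.31 on the control and -1.09 on the knockout array, and one of 0.086 under normexp. *Tap2* was at 3.601 and 3.35, a ratio of -0.25. The 4 genes of this stretch thus lay on both sides of 0. Among 24 genes of interferon signaling and antigen peptide supply, 13 were above 0, with a median of 0.020. At the threshold of 1.2-fold, 1 of the 24 was higher and none was lower, where 18.0% and 19.1% of all measured genes were. Near the ends of the list were *B2m*, the light chain of class I molecules, at 0.23, *Ifngr2*, a chain of the interferon gamma receptor, at -0.25, and *Erap1*, which trims the peptides, at -0.20. Under normexp the dim *Erap1* was at -0.077, *Ifngr2* at -0.21 and *B2m* at 0.28.

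Immunoproteasome transcripts in a ventricle can come from leukocytes as well as from other cells, and in bulk RNA fewer cells of a type and less RNA per cell cannot be told apart. Of 11 measured leukocyte markers (*Cd68* and *Cd79a* were not measured here), 6 were above 0, with a median of 0.034 and ratios from -0.24 (*Itgam*) to 0.29 (*Cd3g*, not well above background on the control array). *Cd52* was at 0.29 and *Cd3e* at -0.19. Their summed linear level was 25.1 times the 75th percentile on the control and 26.5 times on the knockout array. The part of leukocytes in the immunoproteasome values was not tested.

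The regulatory particle had the highest median of the groups, 0.12 over 17 genes, with 16 of the 17 above 0. All 6 ATPases of the base, which form the unfolding ring, were above 0, with a median of 0.16. They fell into 3 at about 1.2-fold and 3 near 0. *Psmc4* was at 4.24 on the control and 4.53 on the knockout array, a log2 ratio of 0.29. *Psmc5* was at 4.22 and 4.49, a ratio of 0.28. *Psmc1* was at 5.63 and 5.90, a ratio of 0.28 from probes at 0.20 and 0.35. The other ATPases, *Psmc3* (0.035), *Psmc6* (0.033) and *Psmc2* (0.024), had ratios below the median spot SD.

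Of the base subunits that are not ATPases, *Psmd4*, a receptor for ubiquitin chains, was at 5.97 on the control and 6.24 on the knockout array, a log2 ratio of 0.27. The scaffold subunits were closer to 0. *Psmd1* had a ratio of 0.080 and *Psmd2* one of -0.030. *Psmd2* was the 1 regulatory particle gene below 0, and it lay above 0 under normexp, at 0.050, and without scaling, at 0.12.

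All 8 lid genes were above 0, with a median of 0.15. *Psmd8* had the highest ratio of the family, with a level of 3.92 on the control and 4.49 on the knockout array. Its ratio of 0.58, or 1.49-fold, came from 1 probe, stayed between 0.56 and 0.73 over the scalings and normexp and was exceeded by 7.40% of all measured genes. It passed 1.5-fold under cyclic loess, under normexp and without scaling. *Psmd6* was at 4.04 and 4.24, a ratio of 0.20. *Psmd14*, the deubiquitinase of the lid, was at 1.77 and 1.95, a ratio of 0.18, and its partner *Psmd7* had a ratio of 0.11. *Psmd12* was at 3.93 and 4.11, a ratio of 0.18 on which its probes differed by little (0.17 and 0.18). *Psmd13* had a ratio of 0.12, *Psmd3* one of 0.034 and *Psmd11* one of 0.011. Seen over core, immunoproteasome and regulatory particle together, 29 of 34 subunit genes were above 0, with a median of 0.10. Of these 34, 6 were at least 1.2-fold higher and 0 were 1.2-fold lower, where 18.0% and 19.1% of all measured genes were. The count on the higher side is thus near the share of all genes.

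Of the activators, *Psme1* and *Psme4* were at least 1.2-fold lower as reported, and *Psme2* and *Psme3* lay near 0. Without scaling neither *Psme1* nor *Psme4* reached 1.2-fold, and *Psme1* did not under normexp. Activators bind the ends of the barrel in place of the regulatory particle and need neither ATP nor ubiquitin. Of the 4 measured, 1 was above 0, with a median of -0.17. *Psme4*, a nuclear activator, was at 2.27 on the control and 1.86 on the knockout array. Its log2 ratio of -0.41, or 1.33-fold lower, was the lowest of the family, its probes gave -0.34 and -0.47, and it lay between -0.43 and -0.26 over the scalings and normexp. *Psme1*, 1 chain of the activator induced by interferon gamma, was at 5.42 and 5.10, a ratio of -0.32 or 1.24-fold lower. Its ratio lay between -0.33 and -0.16 over the scalings and normexp. *Psme2*, the other chain of that activator, was at 4.90 and 4.88, a ratio of -0.022 from probes at -0.057 and 0.012. *Psme3*, a nuclear activator, had a ratio of 0.016. *Psmf1*, an inhibitor of the core particle, had a ratio of 0.021.

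*Psme1* is the 1 member whose probe was printed at 10 spots on each array, which gives its technical spread directly. The spots on the control array ran from 5.32 to 5.47, with a mean of 5.42 ± 0.044 (SD, 10 spots). Those on the knockout array ran from 5.03 to 5.15, with a mean of 5.10 ± 0.045 (SD, 10 spots). The spots of the arrays did not overlap, and all 10 spot ratios were below 0, from -0.38 to -0.20. How many of the 247 probes printed at 8 or more spots separate in this way was not counted. Among all measured genes, 38.7% had a ratio larger in size than the 95th percentile of the spot SD, as *Psme1* did. The spread between spots covers the printing and reading of an array and not the animals. *Psme1* and *Psme2* lie on chromosome 14 with only *Emc9* between them.

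**Figure D3:**
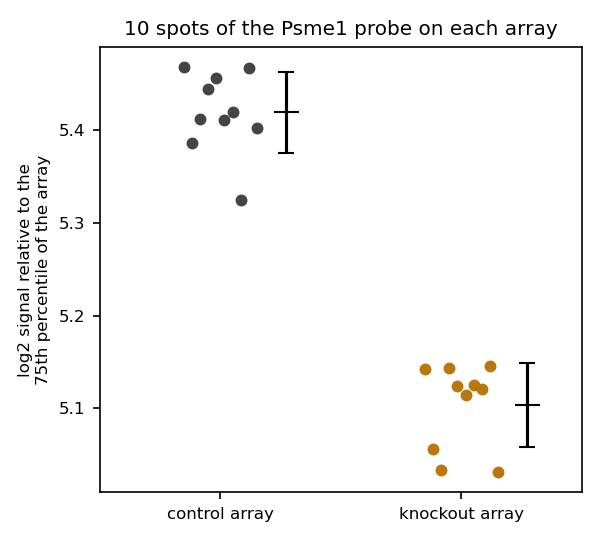
Each point is 1 spot of the *Psme1* probe, with its log2 signal relative to the 75th percentile of the array on the y axis, and the bars are the mean and SD over the 10 spots of an array. The lowest control spot, at 5.32, is above the highest knockout spot, at 5.15.

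The assembly chaperones build the particle and leave it when it is complete. Of 7 measured, 6 were above 0, with a median of 0.047. Of the 4 chaperones of the core particle, *Psmg1* was at 3.33 on the control and 3.16 on the knockout array, a log2 ratio of -0.17 from probes at -0.18 and -0.15. *Psmg2*, with which it forms a dimer, was at 2.89 and 3.01, a ratio of 0.12. *Psmg4* had a ratio of 0.15 and *Psmg3*, its partner, one of 0.021. The partners of the first dimer thus differed in direction. Of the 3 chaperones of the base, *Psmd10*, also known as gankyrin, was at 0.074 and 0.32, a ratio of 0.25 from probes at 0.15 and 0.35. *Psmd5* had a ratio of 0.047. *Psmd9* had a ratio of 0.037 that averages probes at 0.22 and -0.14, so that its direction depends on the probe.

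Of the members that share only the name, *Psmc3ip*, a factor of meiotic recombination, was at -1.26 on the control and -1.54 on the knockout array, a log2 ratio of -0.28. *Psme3ip1*, which encodes a protein that binds the PSME3 activator, had a ratio of 0.066. For 11 members several probes were measured, and in 3 of these (27.3%) the probes differed in sign, as they did in 31.0% of all such genes. These are *Psma4*, *Psme2* and *Psmd9*, whose gene ratios were 0.013, -0.022 and 0.037.

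Genes that work with the proteasome lay on both sides of 0. Of 33 such genes, 20 were above 0, with a median of 0.050 and quartiles of -0.10 and 0.16. At the threshold of 1.2-fold, 4 of them were higher and 3 lower, where 18.0% and 19.1% of all measured genes were. Among the higher were *Ubqln1*, a shuttle for ubiquitinated proteins, at 0.29, *Nploc4*, a cofactor of the unfoldase VCP, at 0.28, and *Uba6*, a ubiquitin-activating enzyme, at 0.27. The probes of *Uba6* were dim, and its ratio came to -0.0088 under normexp. Lower were *Ecpas*, a proteasome adaptor, at -0.31, *Akirin2*, which brings proteasomes into the nucleus, at -0.30, and *Ddi2*, the protease that activates NFE2L1, at -0.30. Under normexp these genes were at -0.24, -0.23 and -0.18, and without scaling at -0.16, -0.15 and -0.15, so none reached 1.2-fold there. *Nfe2l1* itself was at 0.94 on the control and 0.88 on the knockout array, a ratio of -0.064, and *Nfe2l2*, the factor of the oxidative stress response, had a ratio of 0.11. *Pomp*, the maturation factor of the core particle, had a ratio of 0.16, *Adrm1*, a ubiquitin receptor of the base, one of 0.094, and *Sem1*, a small lid subunit outside the naming rule, one of 0.033.

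Markers of the cell types of a ventricle differed between the arrays as well. Cardiomyocyte markers were well above background on both arrays, in keeping with the labeled tissue, and 9 of 10 were below 0, with a median of -0.23. They ran from *Tnni3* at -0.42 and *Pln* at -0.41 to *Tnnt2* at -0.077 and *Mybpc3* at 0.34, and their summed linear level was 8522 times the 75th percentile on the control and 7637 times on the knockout array. All 10 fibroblast markers were above 0, with a median of 0.67, from *Ddr2* at 0.13 and *Tcf21* at 0.16 to *Mfap5* at 1.26 and *Postn* at 1.87, and their summed level was 311 and 476 times. Of 10 endothelial markers, 8 were below 0, with a median of -0.11, from *Cdh5* at -0.22 and *Kdr* at -0.22 to *Vwf* at 0.057 and *Emcn* at 0.10, and a summed level of 86.3 and 80.0 times. Of 8 markers of smooth muscle and pericytes, 5 were below 0, with a median of -0.16, from *Myh11* at -0.27 and *Mcam* at -0.18 to *Cspg4* at 0.094 and *Cnn1* at 0.32, and a summed level of 84.4 and 81.4 times. As reported, 51.6% of all measured genes were below 0. Without scaling, where 69.8% of all genes were above 0, the median was -0.083 for the cardiomyocyte and 0.82 for the fibroblast markers. It was then 0.041 for the endothelial markers and -0.013 for those of smooth muscle and pericytes. Proteasome genes are expressed in all of these cells, and the part of cell composition in their ratios was not tested.

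Scaling between the arrays bears on the small differences described here. The regulatory particle had the highest median, the core the next and the activators and inhibitor the lowest under quantile normalization, cyclic loess and normexp. The other scalings move every gene by the same or nearly the same amount, so they cannot change this order. Under quantile normalization the assembly chaperones, at 0.057, ranked above the immunoproteasome, at 0.048. With the brightest probe of each gene the assembly chaperones, at 0.12, ranked above the core, at 0.070. Without scaling the median of all measured genes moved to 0.14, and the medians of the groups moved with it, to 0.28 for the regulatory particle and 0.25 for the core. Over the scalings and normexp, 10 members turned sign, which are *Psma3*, *Psma4*, *Psmb2*, *Psmb4*, *Psmb6*, *Psmb9*, *Psmd2*, *Psmd11*, *Psme2* and *Psme3*. *Psme1*, *Psme4*, *Psmg1* and *Psmc3ip* were below 0 under every scaling run and under normexp.

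**Figure D4:**
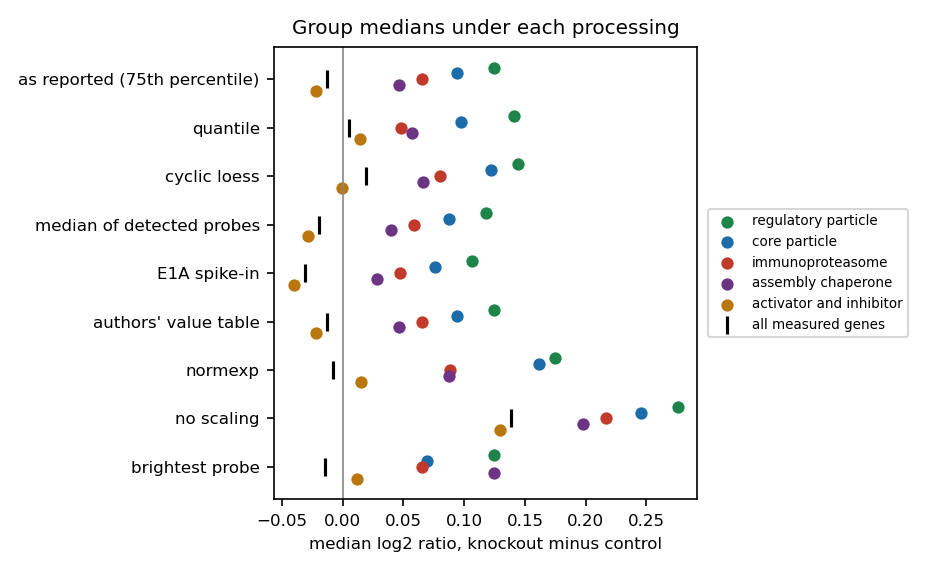
Each row is 1 way of processing the arrays, each colored point the median log2 ratio of a group of proteasome genes on the x axis, and each black bar the median of all measured genes. The median of the regulatory particle lies above that of all genes in each row, by 0.14 as reported, and without scaling all points move to the right together with the bar. A scaling that moves every gene by the same amount cannot change this distance.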

How the data were processed

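For each genotype, Cy3-labeled RNA pooled from 6 mice was put on 1 Agilent SurePrint G3 Mouse array. The intensities deposited by the authors are the processed signal of Agilent Feature Extraction, background-subtracted, linear and unscaled. The submitters' processing notes give version 10.5.1.1 and the file header 10.10.1.1. The authors' value table holds this signal times 1 factor per array (log2 2.45 and 2.31), with medians of 67.2 and 64, and the sources used here do not say how the factor was set.

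Control spots were left out, with 269 spots flagged as outliers. From log2 of the processed signal the 75th percentile of the array was subtracted, and spots of a probe were averaged. A probe was measured if 1 array or both had at least 50% of its spots well above background. A gene measured on 1 array only was counted by a bound, at the higher of its own signal and the lowest signal well above background, which applied to no proteasome gene. Of 55676 probes, 26753 were named through an accession in a RefSeq table of GRCm38.p6, which also gave the promoters. With 1 array per genotype no test was possible and the number of arrays limits the precision. The members and lists were chosen with earlier results of these data known. Every measured member was named, with genes of the pathway and interferon lists at 1.2-fold or more or among the 3 highest and 3 lowest of the list, the 2 highest and 2 lowest of each marker list, and *Arntl*. Some genes that this rule names are not reported here. *Nfe2l1*, *Nfe2l2*, *Pomp*, *Adrm1*, *Sem1* and *Nr1d1* fall outside this rule and were chosen after their values were seen. Alternatives were quantile, cyclic loess, detected-probe median and no scaling, normexp (offset 50, on the median signal and median local background), the value table, other filters, the brightest probe, and E1A spike-in scaling, which was added after seeing the data. Steps were tested on simulated data. Python 3.11.15 with numpy 2.4.6 and pandas 2.3.3, and R 4.3.3 with limma 3.58.1, were used.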

Additional observations from a re-analysis of the deposited data

How the results depend on the processing

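The counts above 0 ranged from 34 of 48 under E1A spike-in scaling, which was chosen after seeing the data, to 44 without scaling between the arrays. They were 42 under normexp and 37 to 39 under the other settings. Of all genes, 45.7% were above 0 under E1A scaling, 48.5% under normexp and 69.8% without scaling. Under the other settings this share was 39.8% to 52.5%. Without scaling, the medians were 0.25 for the core particle, 0.22 for the immunoproteasome, 0.28 for the regulatory particle, 0.13 for the activators and inhibitor and 0.20 for the assembly chaperones, where the median of all genes was 0.14. With the brightest probe of each gene the median of the assembly chaperones was 0.12. The number of genes at least 1.5-fold higher was 1 (*Psmd8*) without scaling, under cyclic loess and under normexp, and 6 at a threshold of 1.2-fold. The number at least 1.5-fold lower was 1 without a filter on dim probes (*Psma8*, not well above background on either array), and 3 at a threshold of 1.2-fold. As reported *Psmd8* lay just under the threshold, at 1.49-fold. It stayed under the threshold with quantile normalization, the median of detected probes and E1A spike-in scaling. Leaving out the scaling adds 0.15 to every log2 ratio, so all medians without scaling are higher by that amount. *Psma8* is counted only where the filter on dim probes is left out. For the remaining differences the cause was not tested. No paired analysis was possible because each group holds 1 array. Depth does not enter an array, and the signal over background limits genes with dim probes, such as *Uba6*, *Tap1* and *Erap1*.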
